A study of Mus musculus with 4 samples.

Results

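The proteasome is the barrel-shaped protease that degrades ubiquitin-tagged proteins, and its genes were followed here as a group in ID8 mouse ovarian cancer cells with and without knockdown of the deubiquitinase USP9X. The group was taken by name: every gene of the deposited expression table whose symbol starts with Psma to Psmg followed by a digit, apart from the immunoproteasome genes Psmb8, Psmb9 and Psmb10. This gave 48 of 22063 genes. They were 16 genes of the 20S core (8 of the alpha rings and 8 of the beta rings), 17 genes of the 19S regulatory particle (6 ATPases and 11 other subunits), 7 assembly chaperones, 5 activator genes and 1 inhibitor. The name also caught 2 genes that encode no subunit, Psmc3ip (HOP2, a meiotic recombination factor) and Psme3ip1 (PIP30, a partner of the activator PA28γ).

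ID8 is an established line derived from mouse ovarian surface epithelium. The study sequenced poly(A) RNA of 2 control libraries (shCtrl, labelled wild type) and 2 knockdown libraries (shUSP9X), with no other treatment named in the labels. Per the methods of the study, ID8 cells were kept in DMEM with fetal bovine serum, and shRNAs were delivered by lentivirus. Several shRNAs are listed, and which one these libraries carry, the oxygen level and the number of clones are not given in the sources used here. Nothing says that libraries of a group came from separate cultures, so p-values measure only the spread between these libraries. Each library held 15611363 to 19978889 estimated counts. Levels are given below as CPM (counts relative to the library total, scaled with TMM factors) for comparisons of 1 gene between libraries, and as FPKM, which also divides by transcript length, for comparisons between genes.

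In the cell, the 20S core holds the proteolytic sites inside stacked rings of alpha and beta subunits. The 19S particle caps the core, recognizes ubiquitin chains, removes them, and unfolds the substrate with a ring of ATPases. Alternative caps (PA28αβ, PA28γ and PA200) open the core without ubiquitin recognition, dedicated chaperones assemble each part, and the transcription factors NRF1 and NRF2, encoded by Nfe2l1 and Nfe2l2, are known to drive proteasome genes through antioxidant response elements.

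The shRNA target was checked first. Usp9x (chrX:13071498-13173328, plus strand, GRCm38) was at 298 and 282 CPM in the shCtrl libraries and at 19.7 and 20.5 CPM in the shUSP9X libraries. Its level was 14.4-fold lower in the knockdown (log2 fold change −3.85 ± 0.06 SE, edgeR adjusted p = 4.7e-26), and the libraries behaved as their labels say. With the offset for GC content and transcript length described below, the log2 fold change was −2.34, and −3.27 with the transcript nearest in implied length.

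Most proteasome genes were higher in shUSP9X cells, by modest amounts, while the gene for the PA200 cap and 1 ATPase gene were much lower, the latter only without the offset described below. Of the 48 genes, 46 were abundant enough to be tested. At an edgeR adjusted p under 0.05, 38 were higher, 3 were lower and 5 passed in neither direction. The 3 lower genes were Psme4, Psmc6 and the weakly expressed Psme2b. The 5 others were Psma3, Psmd6, Psmd12, Psmd14 and Psmg4. Across all 11448 genes tested, 33.8% were called higher and 33.6% lower, so the 82.6% of proteasome genes called higher stood against a background of 33.8%. Log2 fold changes had a median of 0.35 over the tested proteasome genes and of 0.00 over all genes tested. The methods of the study name a cutoff of p under 0.05 and a fold change above 1.5, used there with DESeq2. Applied here to the edgeR fit, it gave 9 proteasome genes higher and 3 lower, against 10.8% and 18.7% of all genes.

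The genes together took up a larger part of the library in shUSP9X cells. They held 0.627% and 0.62% of the counts in the shCtrl libraries and 0.781% and 0.776% in the shUSP9X libraries. The groups did not overlap, and with 2 libraries against 2 an exact permutation test cannot give a p below 0.33. Bulk RNA cannot tell more mRNA per cell from more cells that carry it.

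**Figure D1:**
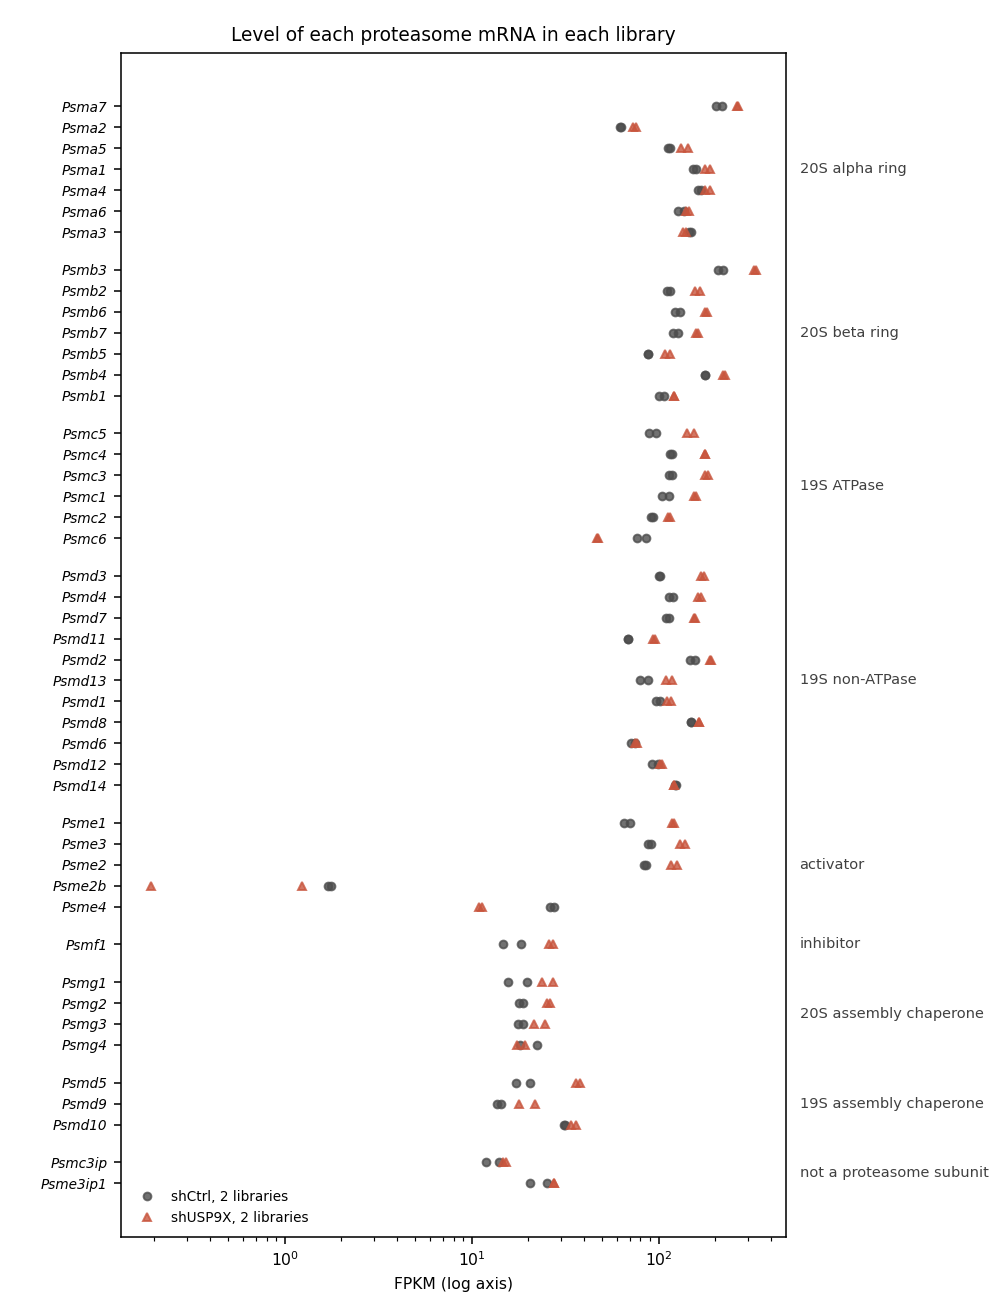
FPKM (log axis) of each tested proteasome gene in each library, with circles for shCtrl and triangles for shUSP9X, grouped by role. Core and 19S genes lie in a narrow band, from 47.0 to 332 FPKM in the first shUSP9X library, with chaperones, the inhibitor Psmf1 and Psme4 below it, the highest chaperone being Psmd5 at 37.9 FPKM.

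**Figure D2:**
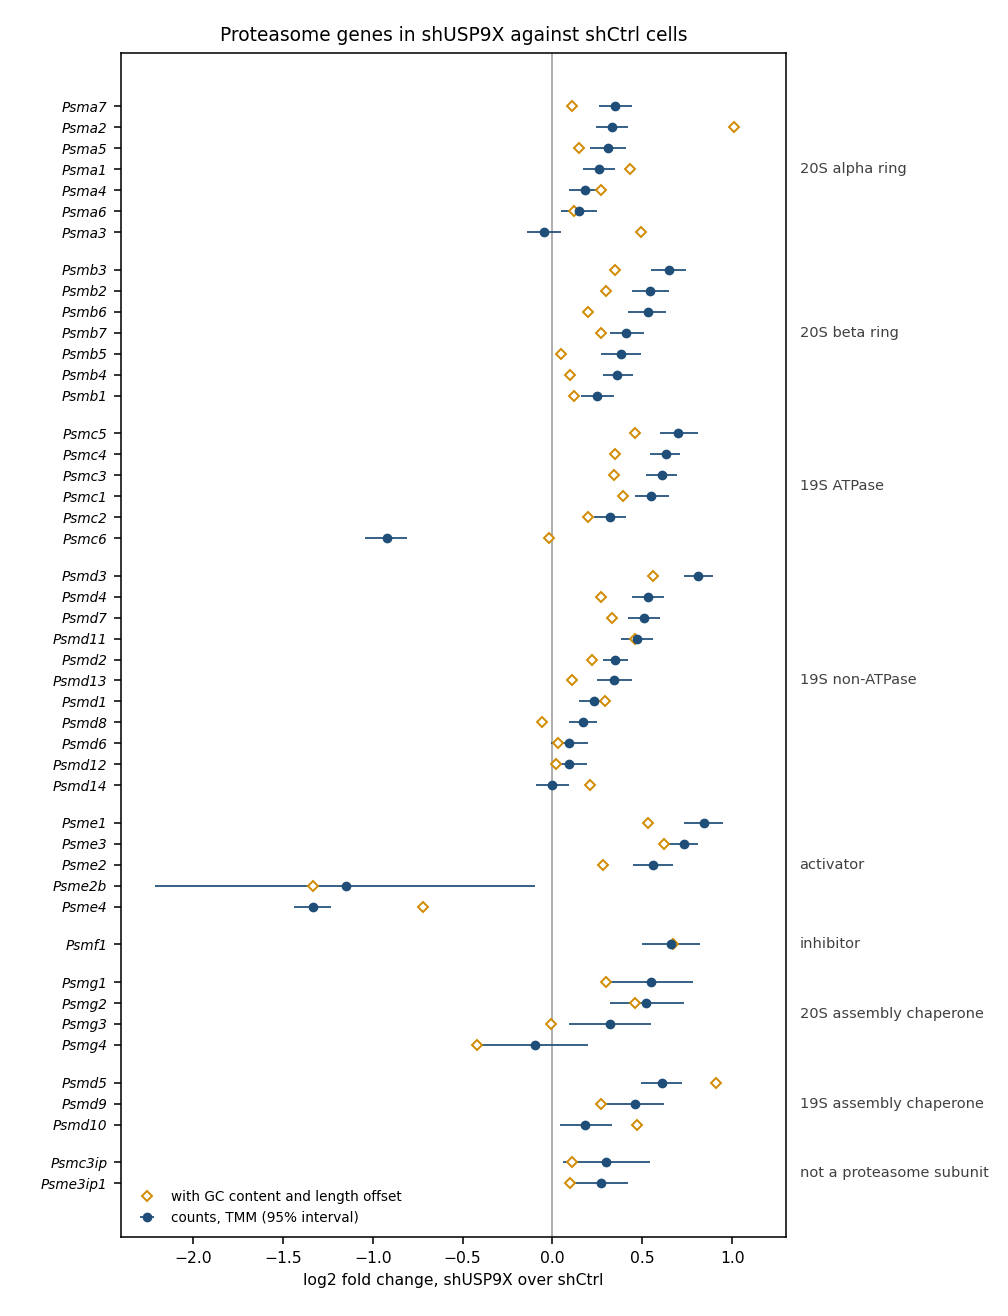
Log2 fold change (shUSP9X over shCtrl) of each tested proteasome gene, with filled circles and 95% intervals from edgeR on counts and open diamonds for the same fit after an offset for GC content and transcript length. Most circles lie right of 0, and with the offset Psmc6 moves to −0.02 and Psma3 to 0.49, while Psme4 stays left of 0 at −0.72.

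All but 2 of the tested genes had control and knockdown values that did not overlap. The 2 with overlapping libraries were Psmd14 and Psmg4. Psma3, Psmc6, Psme4 and Psme2b were lower in both knockdown libraries than in both controls, and the other 40 were higher in both. Over all genes tested, the libraries of the groups did not overlap with the knockdown higher for 41.2% of genes and lower for 41.0%.

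Fold changes in this comparison followed the base composition of the transcripts, which bears on several genes below. Over all genes tested, log2 fold change and GC content had a Spearman correlation of 0.447, and log2 fold change and transcript length one of −0.331, given as descriptions across genes of the same 4 libraries. In the decile of genes with the lowest GC content (31.9% to 41.6%), the median log2 fold change was −0.88 and 82.2% of genes were called lower. In the decile with the highest GC content the median was 0.18. Proteasome transcripts spanned 37.0% to 58.3% GC and were short, with a median of 1490.5 nt against 3196 nt over all genes tested. The decile of genes with the shortest transcripts (204 to 1336 nt) held 20 of the proteasome genes. Over all genes in that decile the median log2 fold change was 0.26. Whether the relation to GC content comes from the cells or from the libraries cannot be told apart here.

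The fit was therefore repeated with a smooth offset for the GC content and length of each gene's longest coding transcript, or longest transcript where none is coding. After it, 35 proteasome genes were higher, 3 lower and 8 neither. In that fit 36.1% of all genes were called higher and 27.4% lower. The median was then 0.27 over the proteasome genes and 0.05 over all genes tested, and 33 proteasome genes were called higher both ways. Against the median of their own GC decile, 41 of the 46 lay above and 5 did not, namely Psmc6, Psmd8, Psme2b, Psme4 and Psmg4.

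**Figure D3:**
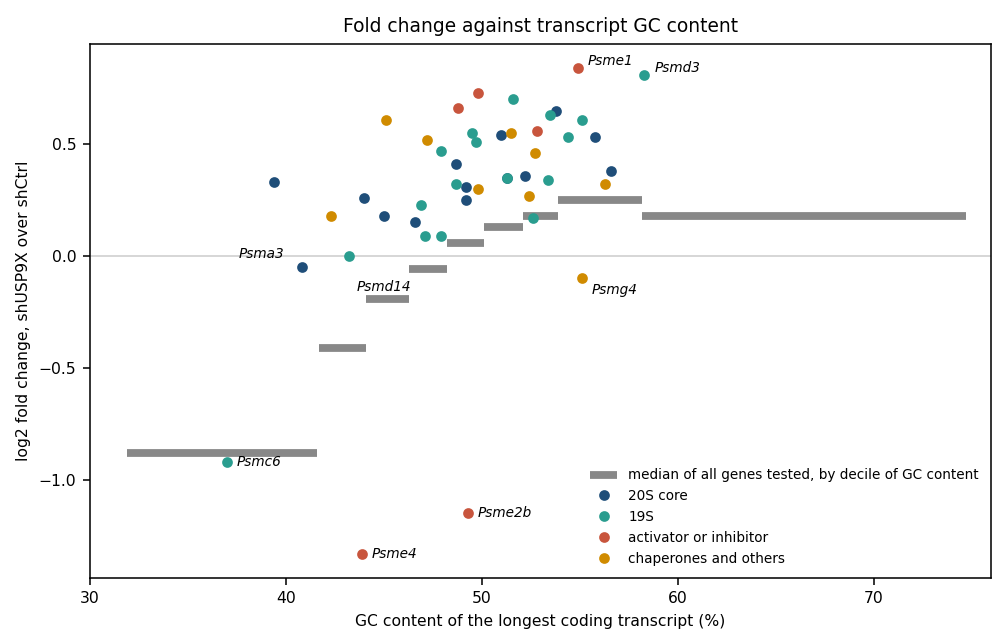
Log2 fold change of each tested proteasome gene (points, colored by role) against the GC content of its longest coding transcript in percent, with gray bars for the median of all genes tested in each GC decile. Most points lie above the bars, Psmc6 lies at the bar of the lowest decile (−0.88), and Psme4 lies far under its own.

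Promoters were read for the genes with an entry in the RefSeq promoter table (GRCm38.p6, 250 bases before to 50 after the start), which matched 40 of the 48 genes with 44 promoters. Psma8, Psmb1, Psmb2, Psmb7, Psmc3, Psmd3, Psmd7 and Psmg2 had no entry. The core letters of the antioxidant response element, TGACNNNGC on either strand, were in 6 of the 44 promoters (13.6%) and in 12.4% of all 32851 promoters. The NF-Y box, CCAAT on either strand, was in 15 of the 44 (34.1%) and in 37.4% of all. The 6 promoters with the element letters belonged to Psmb5, Psmb6, Psmc6, Psmd9, Psmd12 and Psme4, so they included Psme4 and Psmc6, and the match of letters is not a binding site.

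Those of Psmb5, Psmc6 and Psme4 are shown with that of Psmb3, the core gene with the largest rise in the fit without the offset, because the first 3 hold the element letters before genes whose fold changes in that fit had opposite signs, and Psmb3 holds the other motif. Capitals mark TGACNNNGC in Psmb5 (chr14:54617946-54618245, minus strand), its reverse complement GCNNNGTCA in Psmc6 (chr14:45329574-45329873, plus strand) and in Psme4 (chr11:30771525-30771824, plus strand), and the pair of CCAAT boxes in Psmb3 (chr11:97703184-97703483, plus strand).
Psmb3: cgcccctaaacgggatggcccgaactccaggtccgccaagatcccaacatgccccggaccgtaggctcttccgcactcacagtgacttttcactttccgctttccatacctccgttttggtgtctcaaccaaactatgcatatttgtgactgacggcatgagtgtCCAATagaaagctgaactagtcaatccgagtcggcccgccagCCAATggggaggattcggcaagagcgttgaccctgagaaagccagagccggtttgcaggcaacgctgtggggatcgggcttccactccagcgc
Psmb5: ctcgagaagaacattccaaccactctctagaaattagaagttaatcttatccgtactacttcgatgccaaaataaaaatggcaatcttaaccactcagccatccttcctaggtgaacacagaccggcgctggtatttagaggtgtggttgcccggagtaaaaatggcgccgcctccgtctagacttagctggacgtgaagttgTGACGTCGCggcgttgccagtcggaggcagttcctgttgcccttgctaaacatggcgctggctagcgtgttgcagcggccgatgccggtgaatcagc
Psmc6: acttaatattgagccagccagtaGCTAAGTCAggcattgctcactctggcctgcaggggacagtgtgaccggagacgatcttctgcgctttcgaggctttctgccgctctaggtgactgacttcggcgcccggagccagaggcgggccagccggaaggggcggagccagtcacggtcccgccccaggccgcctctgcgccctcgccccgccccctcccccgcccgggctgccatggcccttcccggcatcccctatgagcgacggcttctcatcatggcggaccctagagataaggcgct
Psme4: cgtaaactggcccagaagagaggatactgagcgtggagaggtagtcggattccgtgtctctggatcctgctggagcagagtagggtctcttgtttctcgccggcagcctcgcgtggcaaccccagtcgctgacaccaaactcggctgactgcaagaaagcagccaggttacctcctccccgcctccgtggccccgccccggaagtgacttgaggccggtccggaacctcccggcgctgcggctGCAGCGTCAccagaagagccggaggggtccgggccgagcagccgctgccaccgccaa
Counted from the transcript start, the first marked base was at −85 and −43 in Psmb3, −47 in Psmb5, −227 in Psmc6 and −7 in Psme4. No overlap was searched with other motifs.

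The 7 expressed genes of the 20S alpha rings, which form the gate of the core, had 6 higher and 0 lower, at a median log2 fold change of 0.26. Psma7 had the largest rise in the fit without the offset. It was at 198 and 184 CPM in shCtrl and at 242 and 246 CPM in shUSP9X, a 1.28-fold difference (log2 fold change 0.35, edgeR adjusted p = 7.1e-08). Both knockdown libraries lay above both controls. The order of the ring changed with the offset, where Psma7 was at 0.11 and Psma2 at 1.01 on the log2 scale (edgeR adjusted p = 0.0115 and 1.3e-19), the latter then the largest rise of all proteasome genes. Without the offset, Psma2, Psma5, Psma1, Psma4 and Psma6 rose by 0.33, 0.31, 0.26, 0.18 and 0.15 on the log2 scale, the last with an edgeR adjusted p of 0.00864, which no longer passed the threshold in 5 of 17 alternative fits.

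Psma3 differed from its ring partners in the fit without the offset. It was at 165 and 162 CPM in shCtrl and at 159 and 159 CPM in shUSP9X, and its log2 fold change of −0.05 (95% interval −0.14 to 0.05, edgeR adjusted p = 0.376) did not pass the threshold. Its longest coding transcript is poor in GC (40.8%). With the offset Psma3 was called higher by 0.49 on the log2 scale (edgeR adjusted p = 7.0e-12), so that all 7 alpha genes were then higher. The size of that rise depended on the transcript, which has 2846 nt against 1119 nt implied by counts and FPKM in shCtrl. With the transcript nearest in implied length Psma3 was at 0.12 (edgeR adjusted p = 0.0125). Psma8, the alpha subunit of testis, was listed at 0 counts in every library.

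The 7 expressed beta genes of the core all rose, and their median log2 fold change was 0.41. Psmb3, a subunit without a catalytic site of its own (chr11:97703399-97713500, plus strand, GRCm38), was at 169 and 157 CPM in shCtrl and at 257 and 252 CPM in shUSP9X. Its 1.56-fold rise (log2 fold change 0.65, 95% interval 0.55 to 0.74, edgeR adjusted p = 9.4e-13) was well outside the gap between libraries of a group. At 222 and 207 FPKM in shCtrl, Psmb3 was also the most abundant proteasome mRNA per length in both control libraries, and it stayed so in both knockdown libraries at 332 and 326 FPKM.

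The 3 catalytic subunits all rose without the offset. Psmb6 (β1, caspase-like) rose by 0.53, Psmb7 (β2, trypsin-like) by 0.41 and Psmb5 (β5, chymotrypsin-like, the main target of bortezomib) by 0.38 on the log2 scale. Psmb5 was at 78.4 and 77.5 CPM in shCtrl and at 104 and 98.6 CPM in shUSP9X (edgeR adjusted p = 7.2e-07). That call was not kept with the GC and length offset, where its log2 fold change was 0.05 (edgeR adjusted p = 0.411), and Psmb5 was the only beta gene whose call was lost there. Psmb6 and Psmb7 were at 0.20 and 0.27 in that fit, Psmb3 at 0.35, Psmb2 at 0.30, Psmb1 at 0.12 and Psmb4 at 0.10. Counts of Psmb7 could in part belong to Nek6, whose exons overlap it on the opposite strand by 405 bases, and the counting is not stated to use strand.

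Psmb1 moved least of the beta genes in the fit without the offset, from 175 and 186 CPM in shCtrl to 215 and 214 CPM in shUSP9X (log2 fold change 0.25, edgeR adjusted p = 1.3e-05), and was at 0.58 with the transcript nearest in implied length. Psmb2 and Psmb4 rose by 0.54 and 0.36. Psmb11, the beta subunit of thymus cortex, was listed at 0 counts in every library. Over the whole core, 13 genes were higher and 0 lower, and the summed level went from 2145 and 2084 CPM to 2678 and 2631 CPM.

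The ATPase ring of the 19S particle split in the fit without the offset. Of its 6 genes, Psmc5, Psmc4, Psmc3, Psmc1 and Psmc2 rose, by 0.70, 0.63, 0.61, 0.55 and 0.32 on the log2 scale, and Psmc6 fell. Psmc5, the ATPase with the largest rise, was at 127 and 116 CPM in shCtrl and at 207 and 189 CPM in shUSP9X (edgeR adjusted p = 3.7e-12). Psmc2, with the smallest, was at 166 and 160.0 CPM and at 208 and 201 CPM (edgeR adjusted p = 3.5e-07). In both genes the groups were apart. With the offset, Psmc5, Psmc1, Psmc4, Psmc3 and Psmc2 were at 0.46, 0.39, 0.35, 0.34 and 0.20 and stayed called. Psmc3 shares 215 exonic bases with Slc39a13 on the opposite strand.

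Psmc6 (Rpt4; chr14:45329788-45349705, plus strand, GRCm38) was at 190.1 and 165 CPM in shCtrl and at 93.3 and 94.6 CPM in shUSP9X. It was 1.89-fold lower (log2 fold change −0.92, 95% interval −1.04 to −0.81, edgeR adjusted p = 7.4e-14), with both knockdown libraries far below both controls. The fall depended on the treatment of base composition. Its transcript had the lowest GC content of the group (37.0%), a class in which the median of all genes was −0.88, and with the offset its log2 fold change was −0.02 (edgeR adjusted p = 0.776).

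Because the ring needs 1 copy of each ATPase, the FPKM values were also set against each other within a library. Psmc6 stood at 0.753 and 0.732 of the median of the other 5 ATPase mRNAs in shCtrl and at 0.302 and 0.302 in shUSP9X. The most abundant ATPase mRNA exceeded the least abundant by 1.35-fold and 1.55-fold in shCtrl and by 3.91-fold and 3.71-fold in shUSP9X. The ATPase messages were thus less even in the shUSP9X libraries on the FPKM scale, which carries no correction for GC content.

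Of the 11 other 19S subunits, 8 rose, 0 fell and 3 passed in neither direction, with a median log2 fold change of 0.34. Psmd3 (Rpn3, a scaffold subunit of the lid; chr11:98682554-98695979, plus strand, GRCm38) was at 214 and 215 CPM in shCtrl and at 382 and 368 CPM in shUSP9X. Its 1.75-fold rise (log2 fold change 0.81, 95% interval 0.73 to 0.89, edgeR adjusted p = 5.6e-16) was the largest of the 19S genes and was 0.56 on the log2 scale with the offset.

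Psmd4, the ubiquitin receptor Rpn10, rose by 0.53, and the lid subunits Psmd7 and Psmd11 rose by 0.51 and 0.47. Psmd2 and Psmd1, the large base subunits, rose by 0.35 and 0.23. Psmd2 was the most abundant 19S mRNA in both knockdown libraries, at 189 and 191 FPKM. Psmd13 rose by 0.34 and Psmd8 by 0.17. With the offset, Psmd11 was at 0.46, Psmd7 at 0.33, Psmd1 at 0.29, Psmd4 at 0.27, Psmd2 at 0.22 and Psmd13 at 0.11, all still called. Psmd8 turned to −0.06 with the offset, where it did not pass (edgeR adjusted p = 0.195). Psmd13 shares 342 exonic bases with Sirt3 and Psmd1 shares 252 with Htr2b, both on the opposite strand, and Psmd1 shares a further 301 with Gm21972 on its own strand.

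The deubiquitinase of the lid, Psmd14 (Rpn11), did not follow the other subunits in the fit without the offset. It was at 190.0 and 186 CPM in shCtrl and at 188 and 188 CPM in shUSP9X, so the groups overlapped. Its log2 fold change was 0.00 with a 95% interval of −0.09 to 0.09 (edgeR adjusted p = 0.992), and with the offset it was called higher at 0.21 (edgeR adjusted p = 2.9e-05), beside a median of 0.22 for these 11 genes. Psmd6 and Psmd12 had log2 fold changes of 0.09 and 0.09 (edgeR adjusted p = 0.115 and 0.0776). Psmd12 was called higher in 4 of 17 alternative fits, at 0.28 with the transcript nearest in implied length and 0.17 without the first shCtrl library, and Psmd6 in 2.

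By summed level and by median log2 fold change, the 19S particle as a whole gained about as much as the core. Its summed level went from 3240 and 3189 CPM in shCtrl to 4130.4 and 4119 CPM in shUSP9X. Per length, the median 19S mRNA was at 0.751 and 0.818 of the median core mRNA in shCtrl and at 0.935 and 0.901 in shUSP9X. Both knockdown libraries thus had the higher ratio of medians on the FPKM scale, which carries no correction for GC content. Medians of the log2 fold changes were 0.34 for the core and 0.35 for the 19S genes, and 0.23 and 0.27 with the offset.

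**Figure D4:**
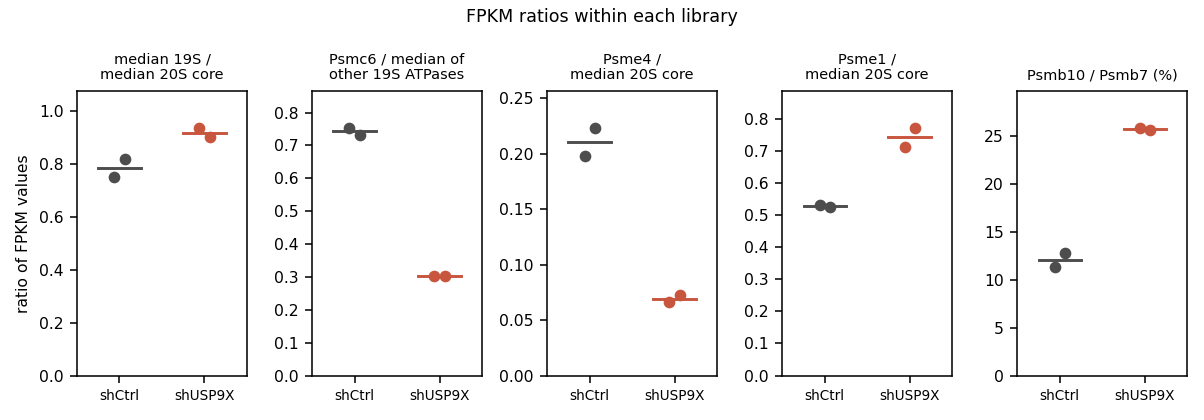
Ratios of FPKM values within each library (points, 1 per library, with a line at the group mean), each panel starting at 0. Psmc6 against the other ATPases and Psme4 against the core dropped in both shUSP9X libraries, and Psme1 against the core and Psmb10 against Psmb7 rose.

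The activators moved in opposite directions. Psme1 and Psme2, which encode the subunits of the interferon-inducible cap PA28αβ, both rose. Psme1 (chr14:55578123-55581529, plus strand, GRCm38) was at 78.0 and 71.4 CPM in shCtrl and at 131 and 136 CPM in shUSP9X, and its 1.79-fold rise (log2 fold change 0.84, 95% interval 0.73 to 0.95, edgeR adjusted p = 2.4e-13) was the largest of all proteasome genes tested in the fit without the offset. With the offset Psme1 was at 0.53 (edgeR adjusted p = 1.5e-10), below Psma2 (1.01), Psmd5 (0.91), Psmf1 (0.67), Psme3 (0.62) and Psmd3 (0.56). The offset used the longest coding transcript, which for Psmf1 was 3809 nt against 2075 nt implied by counts and FPKM in shCtrl. For Psma2 it was 2911 nt against 2326 nt, and with the transcript nearest in implied length Psma2 was at 1.06. Psme2 was at 79.7 and 79.6 CPM and at 113 and 122 CPM (log2 fold change 0.56, edgeR adjusted p = 7.7e-10), and was at 0.28 with the offset, beside a median of 0.23 for the core. No control library reached a knockdown library for either gene.

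Psme3, which encodes the nuclear cap PA28γ, rose by 1.66-fold, from 214 and 216 CPM in shCtrl to 359.8 and 352 CPM in shUSP9X (log2 fold change 0.73, edgeR adjusted p = 4.1e-15). Set against the median core mRNA per length, Psme1 went from 0.53 and 0.524 to 0.713 and 0.771 and Psme3 from 0.684 and 0.704 to 0.842 and 0.832. Both messages thus stood higher against the core in each knockdown library on the FPKM scale, which carries no correction for GC content.

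Psme4, which encodes PA200, the cap known for histone degradation in the nucleus, had the largest fall of the proteasome genes without the offset (chr11:30771726-30880361, plus strand, GRCm38). It was at 168 and 176 CPM in shCtrl and at 69.3 and 67.2 CPM in shUSP9X. The 2.51-fold fall (log2 fold change −1.33, 95% interval −1.44 to −1.23, edgeR adjusted p = 4.0e-18) placed both knockdown libraries far under both controls. At 6491 nt and 43.9% GC its longest coding transcript is long and fairly poor in GC, and with the offset the log2 fold change was −0.72 (edgeR adjusted p = 3.7e-14), with only the sparsely counted Psme2b lower (−1.33). It passed the threshold in all 17 alternative fits, with log2 fold changes between −1.36 and −0.62. Per length, Psme4 was at 0.289 and 0.316 of Psme3 in shCtrl and at 0.0784 and 0.0872 in shUSP9X.

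Psme2b, a near copy of Psme2, had 24.7 and 23.0 estimated counts in shCtrl and 20.7 and 2.75 in shUSP9X. Its call (log2 fold change −1.15, edgeR adjusted p = 0.0499) rested on the second knockdown library, without which it was −0.44 (edgeR adjusted p = 0.571). Reads shared with Psme2 could be split between the copies, so its value is uncertain.

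Psmf1, which encodes the proteasome inhibitor and regulator PI31, rose as well. It was at 32.0 and 35.9 CPM in shCtrl and at 55.4 and 51.3 CPM in shUSP9X (log2 fold change 0.66, edgeR adjusted p = 3.4e-08), with no overlap, and was at 0.67 with the offset. Its FPKM was 0.111 and 0.147 of the median core mRNA in shCtrl and 0.166 and 0.166 in shUSP9X.

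Of the 7 assembly chaperones, which were far less abundant than the subunits, 6 rose and 1 passed in neither direction. Psmd5 (S5b), a chaperone of the 19S base, was at 70.5 and 74.9 CPM in shCtrl and at 108 and 114 CPM in shUSP9X (log2 fold change 0.61, edgeR adjusted p = 2.7e-10). The transcript length implied by its counts and FPKM had a mean of 3924 nt in shCtrl and 2973 nt in shUSP9X. That length also differed within shCtrl, where CPM went from 70.5 to 74.9 while FPKM went from 20.6 to 17.3. No difference between the groups is therefore read from it. Psmd9 (p27) went from 35.5 and 33.1 CPM to 47.2 and 47.3 CPM (log2 fold change 0.46, edgeR adjusted p = 7.0e-06). It shares 1849 exonic bases with the opposite-strand transcript Gm26745, and reads of the pair cannot be told apart without strand.

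Psmd10 (gankyrin, a base chaperone and oncoprotein) was at 44.9 and 44.1 CPM in shCtrl and at 51.9 and 49.2 CPM in shUSP9X. The difference was small (log2 fold change 0.18, edgeR adjusted p = 0.022) and was not called in 5 of 17 alternative fits. With the offset, Psmd10, Psmd5 and Psmd9 were called higher at 0.47, 0.91 and 0.27.

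The PAC chaperones build the alpha ring as the pairs Psmg1 with Psmg2 and Psmg3 with Psmg4. Psmg1 was at 20.5 and 16.1 CPM in shCtrl and at 28.6 and 25.0 CPM in shUSP9X (log2 fold change 0.55, edgeR adjusted p = 1.4e-04). Psmg2 had 346 and 297 counts and then 544 and 476 (log2 fold change 0.52, edgeR adjusted p = 4.1e-05). Both members of the first pair rose, with no overlap between groups, and were at 0.30 and 0.46 with the offset.

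The second pair moved less. Psmg3 was at 15.5 and 16.1 CPM in shCtrl and at 18.8 and 20.9 CPM in shUSP9X (log2 fold change 0.32, edgeR adjusted p = 0.013), and its log2 fold change was −0.01 with the offset. Its exons share 280 bases with Gm26938 on the same strand. Psmg4 was at 12.1 and 9.68 CPM and at 10.6 and 9.62 CPM, with overlapping groups and a log2 fold change of −0.10 (95% interval −0.41 to 0.20, edgeR adjusted p = 0.55). With the offset Psmg4 was lower by −0.42 on the log2 scale (edgeR adjusted p = 0.0118), so whether this chaperone was called depended on the fit.

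Psmc3ip and Psme3ip1, which encode no proteasome subunit, rose slightly. Psmc3ip was at 15.9 and 13.6 CPM in shCtrl and at 17.6 and 18.8 CPM in shUSP9X (log2 fold change 0.30, edgeR adjusted p = 0.0275). Psme3ip1 had 683 and 685 counts and then 989 and 831 (log2 fold change 0.27, edgeR adjusted p = 0.0023). Neither call was kept with the offset, and Psmc3ip shares 385 exonic bases with Mlx on the opposite strand. Without this pair and Psme2b, 36 of 43 tested genes were higher and 2 lower.

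The immunoproteasome genes, which replace the catalytic subunits under interferon, rose, and without the offset by more than any proteasome gene above. Psmb10, which replaces Psmb7, was at 18.7 and 19.9 CPM in shCtrl and at 55.7 and 53.8 CPM in shUSP9X (log2 fold change 1.51, edgeR adjusted p = 1.0e-14). Psmb8 had 40 and 43 counts against 96 and 96 (log2 fold change 1.07, edgeR adjusted p = 4.0e-04), and Psmb9 had 7 and 3 against 25 and 18 (log2 fold change 1.94, edgeR adjusted p = 0.00368). Per length, Psmb10 stood at 11.3% and 12.8% of Psmb7 in shCtrl and at 25.8% and 25.6% in shUSP9X, Psmb8 at 2.79% and 3.59% of Psmb5 against 4.04% and 5.21%, and Psmb9 stayed under 1% of Psmb6 in every library. With the offset, Psmb10, Psmb8 and Psmb9 were at 1.20, 0.78 and 1.64 on the log2 scale, so that Psmb8 was below Psma2 (1.01) and Psmd5 (0.91). The standard catalytic subunits were the abundant forms in both groups.

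Markers of other cell types were read beside these values. The 9 epithelial and mesothelial markers summed to 2503 and 2528 CPM in shCtrl and 2839 and 2781 CPM in shUSP9X, led by Krt19, with Krt7 at 3 counts or fewer in every library. The list split, with Krt8 (0.92), Krt18 (0.64) and Krt19 (0.12) called higher on the log2 scale, Wt1 (−0.52), Msln (−0.47) and Cdh2 (−0.50) called lower, and Upk3b and Cdh1 neither, and with the offset Krt19 (−0.17) and Upk3b (−0.11) were called lower. The 10 leukocyte markers summed to 0.115 and 0.316 CPM in shCtrl and to 10.7 and 12.0 CPM in shUSP9X, led by Itgam, while Cd3e, H2-Ab1 and Nkg7 were listed at 0 counts in every library. Adgre1 had 0 and 0 counts against 58 and 59, Ptprc 0 and 0 against 29 and 18, and Cd74 1 and 4 against 49 and 45. Itgam, Adgre1, Ptprc and Cd74 were called higher, and the other markers of this list had too few counts to be tested. Among those, Cd79a had 0 and 1 counts against 4 and 2, Lyz2 0 and 0 against 0 and 2, and S100a8 1 and 0 against 0 and 1. The markers called higher moved in the same direction as Psme1, Psme2 and the immunoproteasome genes, and their part in those rises was not tested. The 4 fibroblast markers went from 252 and 259 CPM to 148 and 145 CPM, led by Dcn, and the 4 endothelial markers stayed at 1.26 CPM or less.

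Genes that work with the proteasome but carry other names were read from a list of 34, of which 33 were in the table and all 33 were tested. Of these, 19 were higher, 9 lower and 5 neither, against 33.8% and 33.6% of all genes, and the median log2 fold change was 0.21. With the offset, 21 were higher, 4 lower and 8 neither, at a median of 0.32. Adrm1, the ubiquitin receptor Rpn13 of the 19S particle, went from 1803 and 1742 counts in the controls to 3636 and 3149 (log2 fold change 0.79, edgeR adjusted p = 6.0e-14). Pomp, the chaperone of the maturing core, had 1478 and 1356 against 2441 and 2049 (log2 fold change 0.52, edgeR adjusted p = 8.6e-10). Both were also higher with the offset, Pomp at 0.52.

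Sem1, the smallest lid subunit, was different, with 1154 and 907 counts against 1128 and 911 (log2 fold change −0.16, edgeR adjusted p = 0.0497) and 0.65 with the offset. Without the offset, the largest rises of the list were those of the shuttle gene Ubqln4 (0.88), Adrm1 and Nploc4, a cofactor of the segregase p97 (0.68). With it these were at 0.70, 0.51 and 0.57, below Usp14 (1.10), Txnl1 (0.89), Fbxo7 (0.81), Ddi2 (0.80) and Zfand5 (0.73). The offset used longest coding transcripts, of 4726, 4343, 5388, 9553 and 7385 nt for Usp14, Txnl1, Fbxo7, Ddi2 and Zfand5. Counts and FPKM implied 2628, 1821, 2089, 6075 and 2917 nt for them in shCtrl, so their rank is uncertain. The largest falls without the offset were those of the ubiquitin ligase gene Ube3a (−1.58), the E1 gene Uba6 (−1.55) and the 19S-bound deubiquitinase gene Uchl5 (−0.62), which were at 0.07, −0.27 and 0.01 with the offset. Ecpas, which encodes a scaffold that tethers the 26S particle, had 10165 and 9239 counts against 8523 and 7109 (log2 fold change −0.46, edgeR adjusted p = 6.9e-12) and was at 0.18 with the offset.

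The transcription factor genes did not rise together. Nfe2l1, which encodes NRF1, was counted 5409 and 4926 times in the controls and 5663 and 4757 times after knockdown, and was slightly lower for its library sizes (log2 fold change −0.13, edgeR adjusted p = 0.00315). Nfe2l2 rose by 0.29 on the log2 scale (edgeR adjusted p = 6.1e-08). With the offset Nfe2l1 was lower by −0.23 (edgeR adjusted p = 9.8e-07), on the FPKM scale its log2 fold change was 0.03, and NRF1 protein was not measured here.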

How the data were processed

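Total RNA of ID8 cells was enriched for poly(A) RNA, made into libraries and sequenced by the authors (2 shCtrl, 2 shUSP9X). The deposited table holds estimated counts per gene and FPKM. The submitters' processing notes name fastp 0.18.0, Bowtie2 2.2.8, HISAT2, StringTie 1.3.1 and RSEM; the methods of the study give GRCm38 as the genome, and the annotation used is not given in the sources used here. Of 22063 gene identifiers, 21973 matched GENCODE M21 (GRCm38), from which positions, lengths and GC content of transcripts were taken. The authors' FPKM values divide the counts by a length that varies between libraries for many genes: of 9079 genes with 100 counts or more in every library, 3531 had implied lengths within 1% of each other. Library totals of 15611363 to 19978889 counts limit the precision.

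Estimated counts, of which 10.6% to 11.1% of values above 0 were not whole, were rounded and tested with edgeR 4.0.16 in R 4.3.3 (filterByExpr with a minimum count of 10, TMM, quasi-likelihood test, Benjamini-Hochberg adjustment over 11448 genes, threshold 0.05, no block). The test was planned for counts. Intervals are at 95%. The alternatives were DESeq2 1.42.0, other scaling and filters, limma 3.58.1 on log2 FPKM with pseudocounts of 1 and 0.1, a replicate block, a loess offset (span 0.3) for GC content and length, and leaving out each library. The scripts were tested on simulated data. The members, gene lists and tests were chosen with earlier results of these data known. Values in every library are given for Usp9x, the largest and smallest change in each role, all activator, inhibitor and PAC genes, genes against their role's direction, the immunoproteasome genes and, of the pathway list, Adrm1, Sem1, Pomp, Nfe2l1 and Ecpas; its 3 largest rises and falls are named too. A further leukocyte marker was left out of the 10 summed and is not reported here.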

Additional observations from a re-analysis of the deposited data

How the results depend on the processing

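Of the 38 proteasome genes called higher, 31 were called higher in all 17 alternatives, and of the 3 called lower, Psme4 was. Usp9x was lower in all of them, at −3.89 to −3.80 without single libraries, −2.34 with the GC and length offset and −3.27 with the nearest transcript. Without single libraries, 36 to 39 proteasome genes were higher and 2 to 3 lower.

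The replicate numbers of the labels did not pair the libraries: deviations of same-numbered libraries from their group means correlated at −0.045. With 2 libraries a group, both pairs give this same value, so it is a single check. With the replicate block, 3855 genes were higher and 3810 lower, and the calls of all 46 proteasome genes were the same. Nominal p under 0.05 with a fold above 1.5 gave 3376 genes (1233 higher, 2143 lower) and 9 proteasome genes higher. DESeq2 called 35 proteasome genes higher and 2 lower.

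The median log2 fold change of the proteasome genes was 0.39 with upper-quartile scaling, 0.32 with library size alone, 0.33 in the 3 FPKM fits, 0.27 with the GC and length offset (with or without replicate block), 0.28 with an offset from the transcript nearest in implied length, which was chosen after seeing the data, and 0.36 to 0.41 without single libraries. In that order, alpha genes were at 0.30, 0.23, 0.23, 0.27, 0.16 and 0.23 to 0.32. ATPases were at 0.61 and 0.55 with the other scalings, 0.34 with the offset, 0.36 with the nearest transcript and 0.55 to 0.62 without single libraries. With the offset and the nearest transcript, beta genes were at 0.20 and 0.28, other 19S genes at 0.22 and 0.26, activators at 0.28 and 0.29 and chaperones at 0.30 and 0.31. All 3 offset fits called 0 ATPases and 1 chaperone lower. Activators had 1 gene lower instead of 2, as Psme2b lost its call or was filtered out, under DESeq2, its size factors, upper-quartile scaling, either other filter and the FPKM fits, and 1 to 2 without single libraries.

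With the offset, Psma3 was at 0.49 (nearest transcript 0.12), Psmd8 at −0.06, Psmd14 at 0.21 (0.22), Psmg3 at −0.01, Sem1 at 0.65 (0.63), Uchl5 at 0.01, Ecpas at 0.18 (0.33) and Ube3a at 0.07; Nfe2l1 was at 0.03 in the FPKM fits. The cause was not tested. With 2 libraries a group, small differences near the threshold cannot be settled.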
